A study of Mus musculus with 6 samples.

Results

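The cadherin superfamily was examined in the deep cerebellar nuclei of mice trained in delay eyeblink conditioning. Its members were every probe set on the arrays whose platform annotation gave exactly 1 gene symbol, that symbol being Cdh plus digits or starting with Pcdh or Celsr. There were 65 such probe sets among 36701 without controls, for 33 of 15964 genes. All mice were male C57BL/6, 11 to 18 weeks old, and carried 4 wires in the left eyelid and a headstage. After 3 days of recovery training ran for 7 days, with tones of 352 ms and periorbital shocks of 100 ms. In the paired group the shock came 252 ms after tone onset and ended with the tone, while unpaired mice received both at separate times in a pseudorandom order. Tissue centred on the anterior interpositus nucleus, on the side of the wired eye, was sampled with syringe needles 10 to 30 min after sacrifice. Each pool held 10 to 15 nuclei, and the labels do not say from how many mice. Each training group was hybridised to 3 array designs labelled A, B and C, so that 6 arrays were measured and each group had 1 array per design. Whether a single RNA pool of a group served all its designs is not said, so differences between designs and differences between pools cannot be told apart, and a group's pool below means the RNA on the array of that design. The differences below therefore carry no replicate check and no p-value, and the number of arrays limits the precision.

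Cadherins are cell surface proteins that bind across the gap between cells through calcium-dependent extracellular repeats. Classical cadherins tie to actin through catenins and hold synaptic and epithelial junctions together. Clustered protocadherins give single neurons a surface identity that their dendrites and axons use to avoid themselves. Delta protocadherins act in axon growth and synapse refinement, and Celsr proteins are the vertebrate relatives of Flamingo, which act in planar cell polarity and in the laying of axon tracts. In the cerebellum, classical and delta cadherins mark particular nuclei, cortical stripes and their connecting fibres.

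The members cover the family unevenly. Of 38 non-clustered family genes in the RefSeq gene table, 29 had a member probe set, against 4 of 57 clustered protocadherin genes. The rule of exactly 1 symbol lowers the latter count, as it leaves out 8 probe sets tied to several Pcdha genes. Of the member genes, 19 had 2 or more probe sets and 14 had 1. The signal of a probe set is given below as log2 signal, with the paired array scaled to the unpaired one of the same design, and its rank as a percentile among all probe sets of the design. Probes differ in how well they hybridise, so ranks and signals of different probe sets are no order of transcript levels. Probe sets were kept if their mean signal reached the median of their design, and a log2 ratio is always paired over unpaired.

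Member signals lay across the whole range of the arrays. Their percentiles ran from 1.73 to 97.3 with a median of 49.5, and 30 of the 65 were kept (46.2%), against 50% of all probe sets. The kept probe sets belonged to 21 genes, and 12 genes had none. Of the 65, 2 stood in the top 10% of their design, those of Cdh24 and Celsr2, and 13 lay in the lowest 25%. All probe sets of a design give 10% and 25% by definition. Each design had a floor at its 25th percentile, to which lower signals were raised. At least 1 array was at the floor for 16 of the 65 member probe sets, none of them kept, and for 10030 of all 36701.

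**Figure D1:**
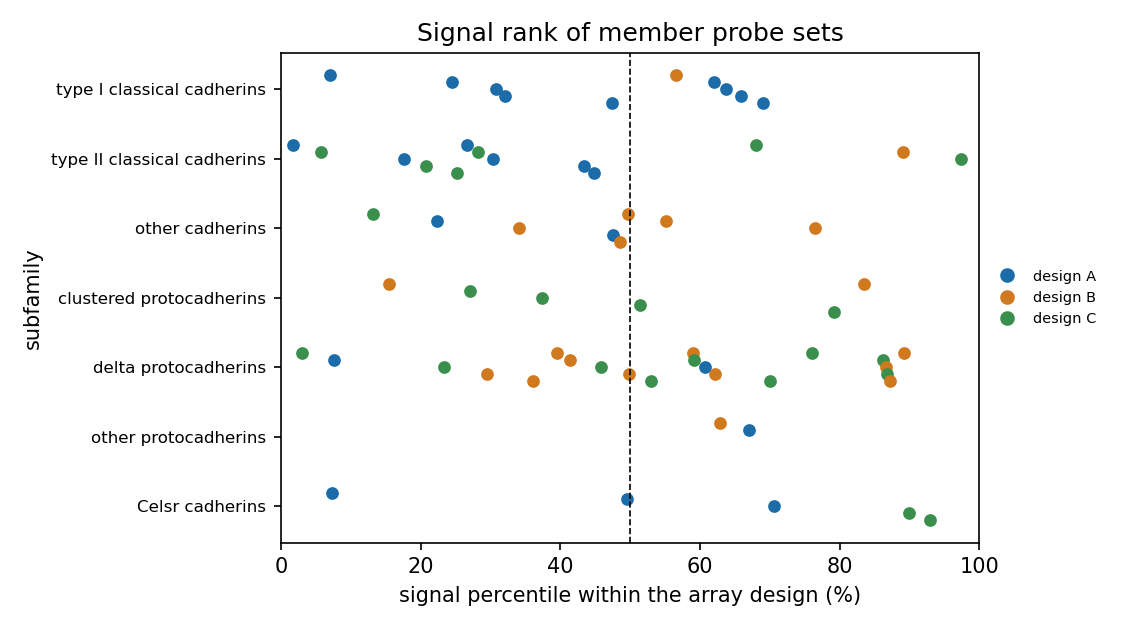
Signal percentile of each of the 65 member probe sets within its array design (x axis, %), by subfamily (y axis) and design (colour). The dashed line marks the median of a design, at or above which probe sets were kept: type II cadherins lie mostly to its left, with 3 of 13 kept, and delta protocadherins mostly to its right, with 12 of 21 kept.

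Differences between the training groups were small for most members. Of the 30 kept probe sets 13 were higher and 17 lower in the paired pool. Their median log2 ratio was -0.062, or 0.010 over the 24 without a letter suffix in the name. A suffix can mark less specific probes, but its several kinds were pooled here and the specificity was not checked. Over all 18351 kept probe sets the median was 0 and 50% had a log2 ratio below 0, both set by the scaling of each design. The log2 ratios of 23 of the 30 were within 0.25 of 0, as were those of 81.7% of all kept probe sets. None was 1.5-fold higher, where 0.349% of all kept probe sets were, and 1 was 1.5-fold lower, that of Pcdhb17, where 0.332% were. Just short of that threshold stood a probe set each of Pcdh9 and Celsr2, both at -0.56. With a threshold of 1.3-fold, chosen after the values were seen, 0 were higher (2.76% of all kept probe sets) and 5 lower (3.07%).

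All 5 of these lay on design C. Of the 12 members kept on design C, 9 were lower, with a median of -0.17, while 50% of the 5934 kept probe sets of the design had a log2 ratio below 0 and 3.29% were 1.3-fold lower. The members on design A had 3 of 7 lower and a median of 0.14 (50% of all kept probe sets lower), and those on design B 5 of 11 lower and a median of 0.036 (50% lower). The spread of all kept log2 ratios was alike on the designs, with an SD of 0.19 on A, 0.20 on B and 0.19 on C. A suffix was carried by 5 of the 12 members kept on design C. These 5 were all lower, with a median of -0.56, and the other 7 had 4 lower and a median of -0.070. Pcdhb11, 1 of the suffixed 5, passed the filter only through its unpaired signal, and is counted as lower here and over all members. Over all suffixed probe sets kept on design C, 52.5% were lower, with a median of -0.0075. The part of the suffixed probes in the count was not tested beyond these values.

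**Figure D2:**
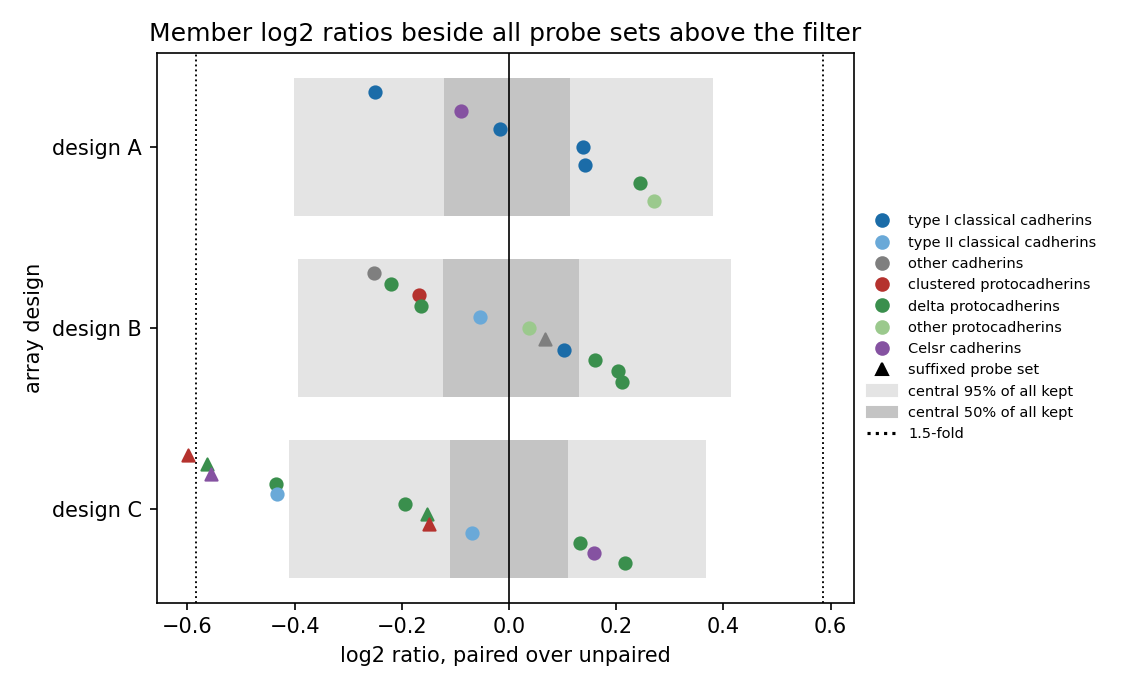
Log2 ratio, paired over unpaired (x axis), of the 30 kept member probe sets on each array design (y axis), coloured by subfamily, with triangles for suffixed probe sets. The grey bands hold the central 95% and 50% of all kept probe sets of the design; 5 members, all on design C and all lower in the paired pool, lie outside the wider band.

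The type I classical cadherins bind to their own kind and are named for the tissues they were found in. Cdh2, N-cadherin, holds the junctions beside the synaptic cleft, and its probe set on design A had log2 signals of 5.70 (unpaired) and 5.45 (paired). Its log2 ratio of -0.25 was the lowest of the 7 members kept on that design. Cdh1, E-cadherin of epithelia, had 5.62 and 5.75 on design A, a log2 ratio of 0.14. Cdh3, P-cadherin, had 5.93 and 6.07, also 0.14, and its suffixed second probe set lay under the filter at 3.68 and 3.70.

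Cdh4, R-cadherin of the retina and brain, had 4 probe sets that read very different signals. The kept ones had log2 signals of 5.81 unpaired and 5.80 paired on design A and 4.61 and 4.72 on design B, with log2 ratios of -0.016 and 0.10. The others, on design A, stood at percentiles 7.04 and 24.5, with an array at the floor. Cdh15, M-cadherin of muscle, lay under the filter on both of its design A probe sets and was on both higher in the paired pool. One had 3.43 unpaired and 3.82 paired and the other, suffixed, 4.57 and 4.78. Of the 5 kept type I probe sets 3 were higher and 2 lower, with a median of 0.10.

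The type II classical cadherins lack the adhesion motif of type I and often mark groups of neurons that connect to each other. Only 3 of their 13 probe sets were kept, for 3 of 9 genes, and all 3 were lower in the paired pool, with a median of -0.070, where 50% of all kept probe sets were lower. Cdh8, which is found at synapses in several brain circuits, had log2 signals of 4.30 (unpaired) and 3.86 (paired) on design C. Its log2 ratio of -0.43, a 1.35-fold difference, ranked 131 from the lowest among the 5934 kept on the design. The other Cdh8 probe set, on design A, gave 3.42 and 3.35, a log2 ratio of -0.064, at percentile 26.7. Both pointed the same way, with very different sizes.

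Cdh24 had the highest rank of all members, percentile 97.3 on design C, with 7.59 unpaired and 7.52 paired. Its log2 ratio was -0.070. Cdh10, a cadherin of brain, stood at percentile 89.1 on design B, with 6.69 and 6.63 and a log2 ratio of -0.054. Its design A probe set, at percentile 44.8, had 4.44 and 4.57. The bright type II probe sets thus read nearly the same signal in both pools.

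The remaining type II genes lay under the filter. Cdh5, VE-cadherin of endothelial junctions, had 4.61 unpaired and 4.21 paired on design A, a log2 ratio of -0.40 at percentile 43.4. Cdh6, K-cadherin, went the other way, from 3.39 to 3.799, a log2 ratio of 0.41 at percentile 30.3. Cdh7 and Cdh9 and both probe sets each of Cdh11, which is typical of mesenchyme and meninges, and Cdh18 had an array at the floor. Their percentiles ran from 1.73 for Cdh9 to 28.2 for Cdh11, so a difference between the pools could not be read.

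Endothelial markers were set beside Cdh5 and Pcdh12. Of 9 listed genes 5 were kept, with a mean log2 signal of 6.40 unpaired and 6.36 paired, and 3 were higher and 2 lower. Cldn5, of endothelial tight junctions, had the lowest log2 ratio, -0.37, and Pecam1, an endothelial adhesion molecule, the highest, 0.23. Between them lay Flt1 at -0.14, Slco1c1 at 0.0042 and Esam at 0.041. Tek, Kdr, Tie1 and Ly6c1 were not kept. Pcdh12, an endothelial protocadherin, had the higher signal in the paired pool on both probe sets. It had 5.74 unpaired and 6.01 paired on design A and 4.95 and 4.98 on design B, giving log2 ratios of 0.27 and 0.036. Cdh5, under the filter, and Pcdh12 thus had log2 ratios of opposite sign, as had Cldn5 and Pecam1, the markers furthest apart. In pooled tissue, fewer cells of a type and less RNA per cell cannot be told apart.

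Cadherins outside the classical types were read by 8 probe sets. Cdh13, T-cadherin, which has a lipid anchor in place of a cytoplasmic tail, had 6 of them. The 2 kept ones lay on design B. One had 4.71 unpaired and 4.46 paired, a log2 ratio of -0.25, and the other, suffixed, 5.71 and 5.78, a log2 ratio of 0.068. Another design B probe set just under the filter, at percentile 48.6, had 4.08 and 4.43, a log2 ratio of 0.35. The log2 ratio was 0.017 on design A and -0.10 on the last one of design B, suffixed, and the suffixed design C probe set was at the floor. Cdh13 thus had probe sets in both directions on the same pair of arrays. Cdh16 of kidney had an array at the floor, and Cdh17 of liver and intestine had 4.41 and 4.19 at percentile 49.6, just under the filter.

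Clustered protocadherins were covered by 4 genes of the beta cluster and 6 probe sets, of which 3 were kept, 1 each of Pcdhb17, Pcdhb22 and Pcdhb11. Pcdhb17 had log2 signals of 5.27 (unpaired) and 4.67 (paired) on a suffixed probe set of design C. Its log2 ratio of -0.60, a 1.51-fold difference, was the largest of all kept members in either direction and ranked 18 from the lowest on the design. The other Pcdhb17 probe set, also suffixed, had 2.61 unpaired and was at the floor of 2.25 in the paired pool. Both Pcdhb17 probe sets were lower in the paired pool, and whether either also reads related beta genes was not checked.

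Pcdhb22 had 6.29 unpaired and 6.12 paired on design B, a log2 ratio of -0.17 at percentile 83.4. Pcdhb11 had 3.16 and 3.01 on design C, a log2 ratio of -0.15 on a suffixed probe set at percentile 51.4. The median of design C was 3.02, so Pcdhb11 was the 1 kept member with an array under it and passed only through its unpaired signal. Pcdhb7 was not kept on either design, with 2.58 and 2.55 on design C and both arrays at the floor on design B. Beta protocadherin genes are similar neighbours and the probe sequences were not checked, so whether each signal comes from its named gene alone is uncertain.

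The delta protocadherins gave the most data, with 21 probe sets for 8 genes. Of these 12 were kept, 6 higher and 6 lower, with a median of -0.011, or 0.15 over the 10 without a suffix. Pcdh9, a protocadherin of the delta-1 group, had 3 kept probe sets that disagreed. On design B it had 6.41 unpaired and 6.57 paired, a log2 ratio of 0.16 at percentile 87.2. On design C one had 4.44 and 4.002, a log2 ratio of -0.43, and the other, suffixed, had 3.79 and 3.23, a log2 ratio of -0.56. The latter ranked 36 and the former 128 from the lowest of the design. The range over its kept probe sets, 0.72, was the widest of the member genes, and the probe set of highest rank was the one that pointed up. The remaining Pcdh9 probe set, on design C, was at the floor at percentile 2.97.

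Pcdh7, also of the delta-1 group, had 5.37 unpaired and 5.61 paired on design A, a log2 ratio of 0.24. On design B it had 3.29 and 3.41 under the filter, a log2 ratio of 0.12, and its second design A probe set was at the floor. Pcdh11x, encoded on the X chromosome, had 4.78 and 4.59 on one design C probe set and 5.64 and 5.78 on the other. Its log2 ratios of -0.19 and 0.13 cancelled to a mean of -0.030. Pcdh1 lay under the filter on design B with nearly equal signals in the pools, 3.66 in both on one probe set and 3.84 and 3.83 on the other.

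In the delta-2 group, whose tails bind the actin-regulating WAVE complex, Pcdh17 and Pcdh10 had probe sets of high rank. Pcdh17 had 6.78 unpaired and 6.56 paired on design B, a log2 ratio of -0.22 at percentile 89.2, and 5.68 and 5.90 on design C, a log2 ratio of 0.22 at percentile 86.8. Under the filter, Pcdh17 had log2 ratios of -0.13 (design B) and -0.37 (design C). Pcdh10, OL-protocadherin, had 6.34 and 6.55 on design B, a log2 ratio of 0.20 at percentile 86.7. A second kept probe set on the same arrays, at percentile 62.1, had 5.005 and 4.84, a log2 ratio of -0.16, and one under the filter had 0.078. Both genes thus had kept probe sets in opposite directions, of like rank for Pcdh17, while the higher one of Pcdh10 was also the brighter.

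Pcdh19, an X-linked gene whose loss in people causes epilepsy, had 4.67 unpaired and 4.88 paired on its single probe set on design B, a log2 ratio of 0.21. Pcdh18 had 3.24 and 3.09 on a suffixed design C probe set, a log2 ratio of -0.15, while the second probe set had the paired array at the floor. All delta-2 log2 ratios of kept probe sets lay between -0.22 and 0.22.

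The Celsr cadherins are large receptors with cadherin repeats and a membrane-spanning part of the adhesion G protein-coupled kind. Celsr2 had 6.82 unpaired and 6.26 paired on a suffixed probe set of design C, a log2 ratio of -0.56 or a 1.47-fold difference. It ranked 44 from the lowest on the design, and its percentile of 92.9 was the second highest of the members. The Celsr2 probe sets on design A had 6.15 and 6.06, a log2 ratio of -0.089, and, just under the filter, 4.72 and 4.85, a log2 ratio of 0.13. Celsr3 had 6.06 and 6.22 on design C, a log2 ratio of 0.16 at percentile 89.96, and Celsr1, which is typical of progenitor cells, was at the floor in both pools. Celsr2 was thus 1.47-fold lower on 1 of its 3 probe sets and within 0.13 of equal signal on the others.

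**Figure D3:**
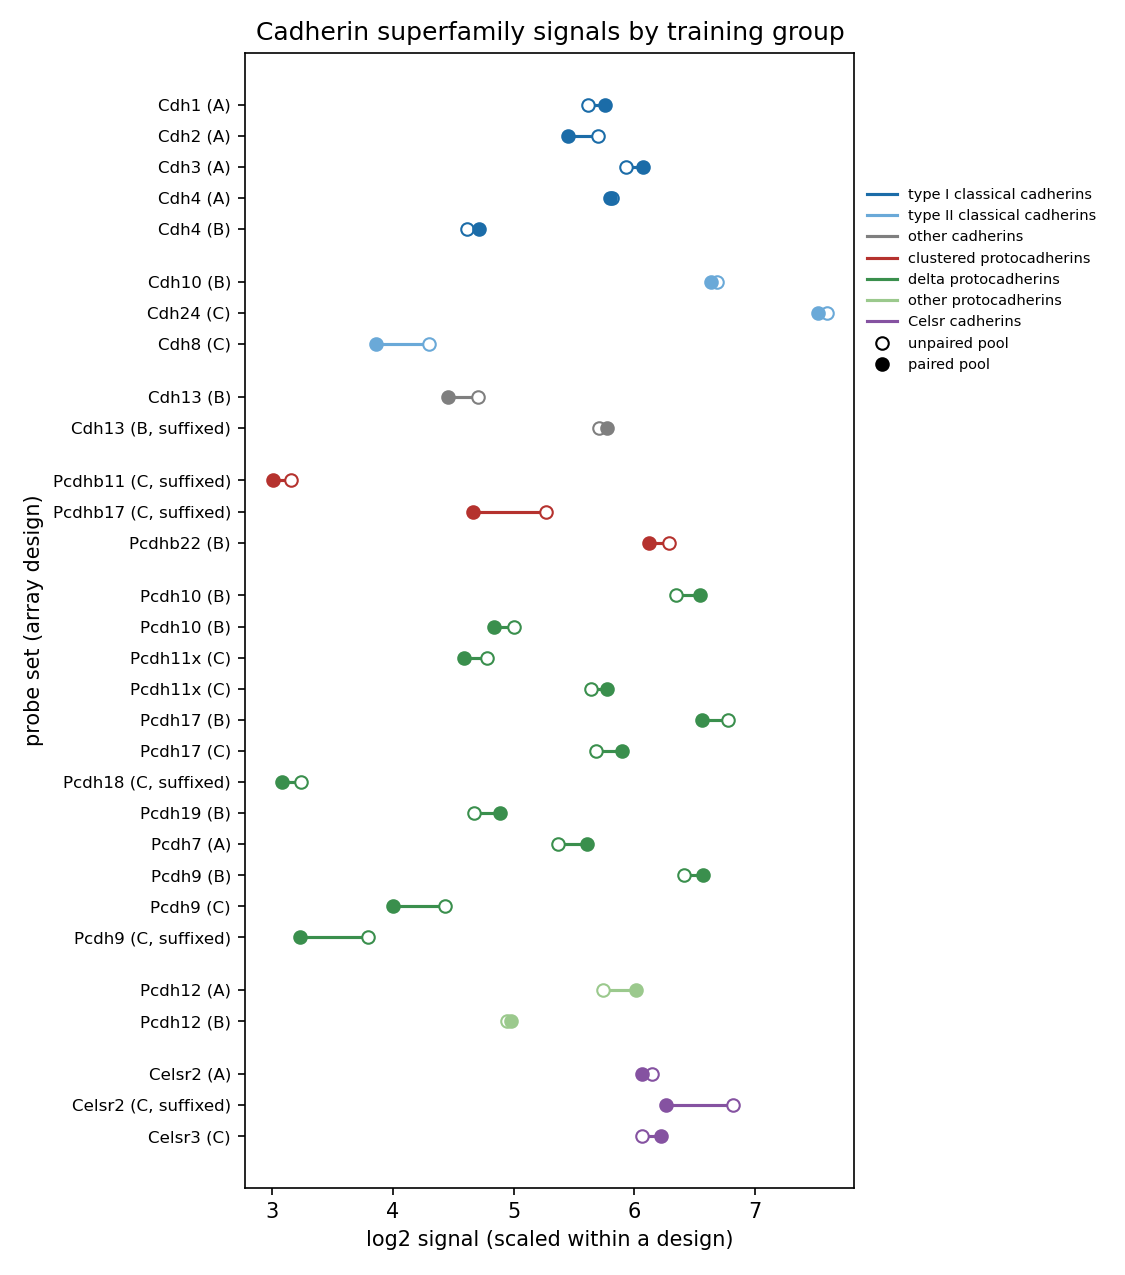
Log2 signal (x axis) of the 30 kept member probe sets (y axis, with the array design in parentheses) in the unpaired (open) and paired pool (filled), coloured by subfamily. The longest steps, toward lower signal in the paired pool, belong to Pcdhb17, Pcdh9, Celsr2 and Cdh8 on design C.

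Agreement between probe sets of a gene could be seen for 8 genes with 2 or more kept. In 2 of them, Pcdh12 and Celsr2, all kept probe sets lay on the same side of 0, where 42.1% of the 3437 genes with several kept probe sets did so. The range between the highest and lowest log2 ratio of a gene had a median of 0.35 over these 8 genes, and of 0.22 over the 3437. Cdh4, Cdh13, Pcdh9, Pcdh10, Pcdh11x and Pcdh17 had kept probe sets on both sides of 0. Averaged over its kept probe sets, each of 21 genes had 1 value, of which 8 were above and 13 below 0, with a median of -0.054. Over all 10579 genes measured, the median was -0.0039 and 51% were below 0. The lowest gene means were -0.60 for Pcdhb17, -0.43 for Cdh8, -0.32 for Celsr2 and -0.28 for Pcdh9. Without suffixed probe sets Celsr2 was at -0.089, Pcdh9 at -0.14 and Pcdhb17 had none left, and on its brightest probe set Celsr2 was at -0.56 and Pcdh9 at 0.16. The highest were 0.24 for Pcdh7, 0.21 for Pcdh19, 0.16 for Celsr3 and 0.15 for Pcdh12.

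**Figure D4:**
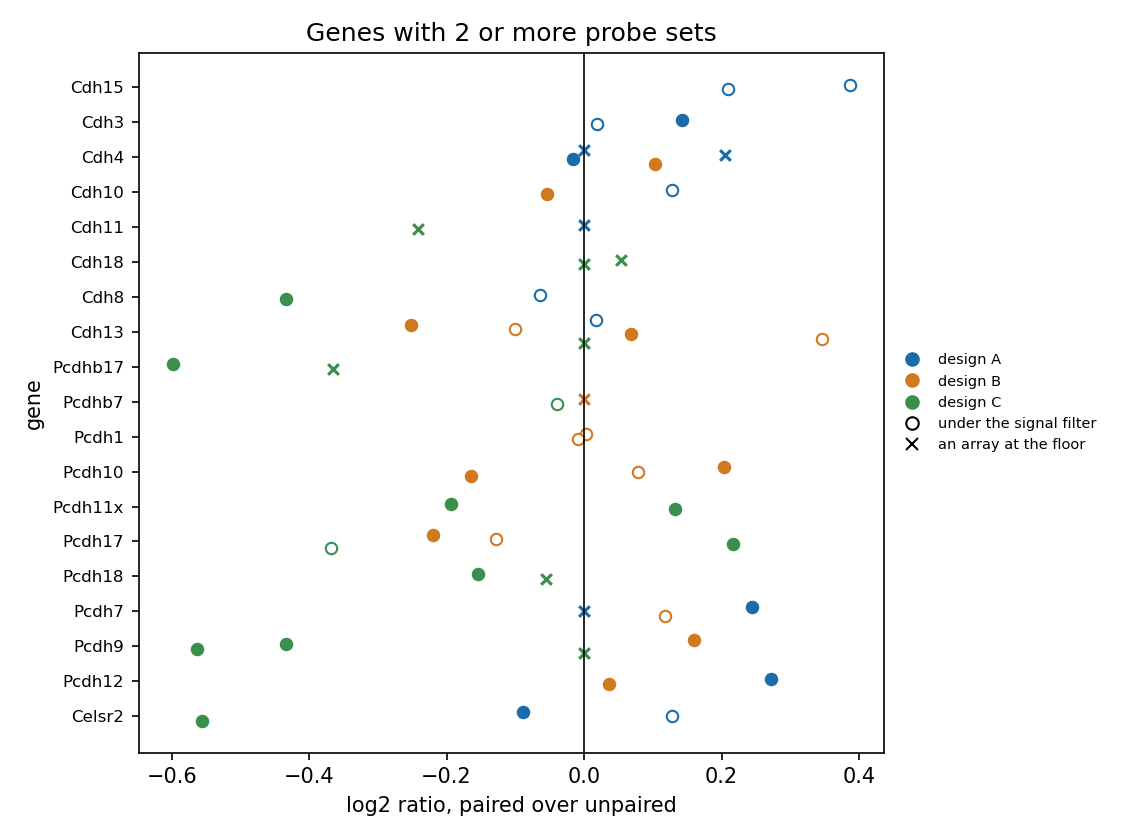
Log2 ratio, paired over unpaired (x axis), of every probe set of the 19 member genes with 2 or more probe sets (y axis), coloured by array design. Open circles lie under the signal filter and crosses have an array at the floor; Pcdh9, Pcdh17, Pcdh10 and Pcdh11x have filled points on both sides of 0.

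Sequences before the transcription starts are shown for genes at either end of the kept member log2 ratios, to compare their regulatory ends. They are those of the 2 lowest and 2 highest kept probe sets with an entry in the RefSeq promoter table (GRCm38.p6), 250 bases long, 5′ to 3′ on the gene's strand, with any GC box in capitals. Pcdh9 lies on the minus strand at chr14:93890680-93890929, Celsr2 on the minus strand at chr3:108415580-108415829 and Pcdh7 on the plus strand at chr5:57717831-57718080. Pcdh17, chosen for 1 probe set although its gene mean was -0.0016, lies on the plus strand at chr14:84443313-84443562. The Pcdh9 and Celsr2 probe sets, both suffixed, were at -0.56, while the brightest Pcdh9 one was at 0.16. Those of Pcdh7 (0.24) and Pcdh17 (0.22) lay within the central 95% of their designs.
Pcdh9: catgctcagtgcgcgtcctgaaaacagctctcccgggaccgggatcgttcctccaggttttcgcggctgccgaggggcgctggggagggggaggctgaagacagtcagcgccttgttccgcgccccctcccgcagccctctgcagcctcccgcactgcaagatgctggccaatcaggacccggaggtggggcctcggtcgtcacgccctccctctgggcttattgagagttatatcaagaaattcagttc
Celsr2: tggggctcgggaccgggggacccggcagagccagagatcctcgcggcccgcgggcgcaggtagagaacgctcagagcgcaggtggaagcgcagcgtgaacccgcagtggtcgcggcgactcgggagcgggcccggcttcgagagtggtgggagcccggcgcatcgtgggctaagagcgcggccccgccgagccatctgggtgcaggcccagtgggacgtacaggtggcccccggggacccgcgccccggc
Pcdh7: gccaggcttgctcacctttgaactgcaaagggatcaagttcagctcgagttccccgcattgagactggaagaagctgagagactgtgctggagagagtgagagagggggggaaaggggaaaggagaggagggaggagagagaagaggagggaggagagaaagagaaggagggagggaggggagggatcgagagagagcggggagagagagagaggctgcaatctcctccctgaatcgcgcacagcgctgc
Pcdh17: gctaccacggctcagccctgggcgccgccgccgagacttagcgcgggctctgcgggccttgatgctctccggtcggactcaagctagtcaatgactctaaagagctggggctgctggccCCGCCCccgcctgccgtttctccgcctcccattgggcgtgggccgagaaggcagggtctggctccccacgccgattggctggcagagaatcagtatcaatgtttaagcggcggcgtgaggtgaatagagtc

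The motifs searched, on both strands, were the GC box GGGCGG, the E box CACGTG and the cAMP response element TGACGTCA, and no match overlapped another. Pcdh17 held 1 GC box, on the opposite strand, and none of the 4 windows held another of these motifs. The windows were rich in G and C, with 63.6% for Pcdh9, 75.2% for Celsr2, 58.4% for Pcdh7 and 64.8% for Pcdh17, against a median of 52.4% over all 32851 windows of the table. They held 18, 32, 7 and 21 CpG pairs, where the median over all windows was 6. The 16 member genes with an entry had medians of 62.6% G and C and 16.5 CpG pairs. Richness in G and C was thus no trait of these 4 genes alone. In the first window of each of these 16 genes, a GC box was found in 9 (56.25%), against 32.7% of all windows. An E box was found in 1 (6.25%), against 6.02%, and the cAMP element in 0, against 1.55%. The shares over all windows can count a gene more than once, so the units differ. These are matches of letters in short windows and were not tied to the differences between the pools.

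Genes that work with cadherins were set beside the members in 6 lists, by the mean log2 ratio over a gene's kept probe sets. No gene of any list was 1.5-fold apart, where 0.189% of all genes measured were 1.5-fold higher and 0.199% lower. Over all genes measured, 51% had a mean below 0. Catenins and other adaptors had 6 of 17 measured genes higher and 11 lower, with a median of -0.078. Lin7c, a scaffold, had a log2 ratio of -0.35 and Ctnna2, the neuronal alpha-catenin that links cadherins to actin, -0.35 with 7.44 unpaired and 7.09 paired. At the other end stood Ctnnd1, p120-catenin, at 0.14 and Jup, plakoglobin, at 0.11. Ctnnb1, beta-catenin, had 8.52 and 8.42, a log2 ratio of -0.090.

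Genes of the WAVE complex and of kinases and a phosphatase bound by protocadherin tails were all lower in the paired pool, 9 of 9 measured, with a median of -0.12, where 51% of all genes were below 0. Wasf1, the neuronal WAVE protein, had -0.37 and the kinase gene Fyn -0.29, and nearest to 0 were Cyfip2 at -0.0022 and the phosphatase gene Ppp1ca at -0.077. Cyfip1, Wasf2, Abi1, Ptk2 and Ptk2b were not measured. Within genes of this list, Cyfip2, Wasf3, Taok2 and Ppp1ca had kept probe sets on both sides of 0. The list was chosen with lower values of other actin genes in these pools already known, so its count is no independent evidence of a direction.

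Regulators of the clustered protocadherin promoters had 3 higher and 8 lower of 11 (51% of all genes lower), with a median of -0.096. The cohesin gene Rad21 had 8.13 unpaired and 7.67 paired, a log2 ratio of -0.45, and Wapl, which releases cohesin, a mean of -0.17 over probe sets at -0.49 and 0.15. Ctcf, whose protein binds these promoters, had -0.082, and the highest were the DNA methyltransferase gene Dnmt3a at 0.082 and the cohesin loader gene Nipbl at 0.044. Planar polarity partners of Celsr had 5 higher and 4 lower of 9, with a median of 0.018. Dvl2 had 0.41 and Vangl2 0.13, against -0.35 for Scrib and -0.14 for Prickle2.

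Proteases listed for the cutting of adhesion molecules had 5 higher and 2 lower of 7, with a median of 0.039. Klk8, neuropsin, had 0.42, and Adam10, which sheds N-cadherin, had a mean of 0.28 over probe sets at -0.12 and 0.67. The lowest were Aph1a at -0.046 and Psenen at -0.013, both of gamma-secretase, and Psenen had kept probe sets on both sides of 0. Nectins, desmosomal and giant cadherins and calsyntenins had 4 higher and 8 lower of 12 (51% of all genes lower), with a median of -0.030. Fat2, a giant cadherin of granule cells, had 0.47 and Clstn1 a mean of 0.20 over probe sets at -0.091 and 0.48, against -0.45 for Nectin4 and -0.29 for Fat1. The partner lists thus had medians between -0.12 and 0.039.

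**Figure D5:**
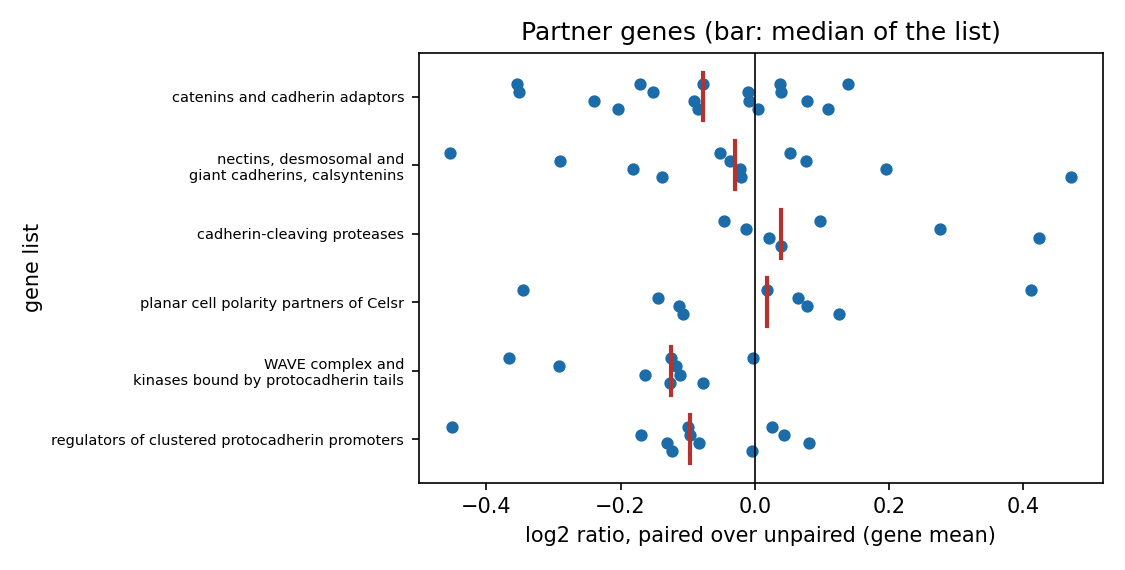
Mean log2 ratio, paired over unpaired (x axis), of each measured gene of the 6 lists of cadherin partners (y axis), with the list's median as a bar. All 9 genes of the WAVE list lie below 0, and no gene of any list is 1.5-fold apart.

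Markers of the cell types in the tissue were measured on the same arrays. The labelled nuclei were represented by 7 of 8 projection neuron markers, with a mean log2 signal of 7.98 unpaired and 7.94 paired and a median log2 ratio of -0.028, while Spp1 was not measured. Granule cell markers had 4 of 5 genes higher, from a mean of 6.46 to 6.80, and a median of 0.35, and Purkinje cell markers 4 of 4, from 5.77 to 6.01, and 0.25. Gabra6 of granule cells, at 0.89, was the only marker gene 1.5-fold apart, where 0.189% of all genes measured were 1.5-fold higher and 0.199% lower. Of all genes measured, 51% had a mean log2 ratio below 0. Oligodendrocyte markers had 5 of 6 lower, from 8.502 to 8.39, with a median of -0.081. Astrocyte and Bergmann glia markers had 4 of 7 higher, with means of 7.98 in both pools and a median of 0.032, and microglia 4 of 5 higher, from 7.00 to 7.11, and 0.060. Meninges and fibroblast markers had 3 of 5 higher, from 5.80 to 5.92, and a median of 0.15, and choroid plexus 2 of 3 higher, from 5.26 to 5.20, and 0.11. The endothelial median was 0.0042. The part of these cell types in the member values was not tested.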

How the data were processed

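Signals came from 1-colour arrays hybridised with 15 ug of biotin-labelled cRNA, per the labels' protocols. The authors deposited 1 value per probe set and array, read here as log2 signals from their range, 1.40 to 12.53 without controls. How they were background-corrected, summarized and normalized is not stated in the labels or the files. Within a design, 66 control probe sets were set aside and the paired array was shifted (by 0.010, 0.0084 and 0.0067 on A, B and C) so that the log2 ratios of the brighter part of the probe sets, from the median signal up, had a median of 0. Signals under the 25th percentile were set to it, and probe sets at or above the median were kept (6211, 6206 and 5934). Designs were never normalized together.

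Genes come from the platform annotation (29131 probe sets with 1 gene, 724 with several, 6846 with none), with symbols updated by gene identifier through the RefSeq table of GRCm38.p6, which held all 33 member genes. The probe sequences were not checked. Of 26 member genes outside chromosome 18, 16 had an entry in the promoter table, and the 7 on chromosome 18 were not used there. Every member gene with a kept probe set was named, and of each partner list the 2 highest and 2 lowest genes, with Ctnnb1 and Ctcf added after their values were seen. Members and lists were chosen with earlier results of these data known. No test across samples could be run, and counts are by size. Alternatives were no, quantile and loess scaling (span 0.3), other floors and signal filters, leaving out suffixed probe sets, and the brightest probe set per gene. The scaling, the signal filter and the 1.5-fold calls were run on simulated data, with planted differences larger than those of any kept member. Smaller differences, medians, gene means and the promoter steps were not simulated. The software was Python 3.11.15, pandas 2.3.3 and statsmodels 0.14.6.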

Additional observations from a re-analysis of the deposited data

How the results depend on the processing

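No paired analysis was possible because each training group had 1 array per design. For the same reason no array could be left out. A median or gene value was taken as kept where it moved by less than the SD of all kept log2 ratios, 0.19, over the square root of its number of probe sets. Of 70 comparisons of a median with an alternative 59 kept to this, and of 176 comparisons of a gene value 162 did, with 10 gene values on the other side of 0. The medians that moved further were as follows. With no signal filter the median over all 65 members was 0. With the filter raised to the 75th percentile it was 0.15 for delta protocadherins (6 probe sets), -0.38 for clustered protocadherins (2) and 0.068 for other cadherins (1), while no type I cadherin or Pcdh12 probe set passed and no median could be given for them. Without suffixed probe sets it was 0.010 over all members (24 probe sets), 0.15 for delta protocadherins (10), 0.034 for Celsr cadherins (2) and -0.25 for other cadherins (1), and 0 members were 1.5-fold lower. With the brightest probe set per gene it was -0.016 over all 21 genes, 0.16 for delta protocadherins and 0.068 for other cadherins. With a threshold of 1.3-fold, chosen after seeing the data, 5 members were lower. The 14 gene values that moved further belonged to 6 genes. Pcdh9 was at 0.16 with the brightest probe set or the 75th percentile and at -0.14 without suffixed ones, Celsr2 at -0.56, -0.56 and -0.089 under the same alternatives and at -0.17 with no filter, and Cdh13 at 0.068, 0.068 and -0.25. Pcdh10 was at 0.20 with the brightest probe set or the 75th percentile, and with the brightest Pcdh17 was at -0.22 and Pcdh11x at 0.13. The signs of the medians over all members, delta protocadherins and Celsr cadherins thus changed when suffixed probe sets were left out. The scalings moved the median of all kept probe sets by at most 0.00849 in size.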

Other observations

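The alpha cluster of protocadherins was read only by probe sets that the annotation ties to several genes, 8 on design A with 9 or 14 Pcdha symbols each. They were not members. Of these 6 were kept, 5 higher and 1 lower in the paired pool, with a median log2 ratio of 0.058. A suffix was carried by 4 of the 6, which were all higher, while the 2 without one were at 0.019 and -0.53. The brightest, a suffixed one, had a log2 signal of 9.07 unpaired and 9.13 paired, percentile 96.997 of the design, a log2 ratio of 0.060. The lower one had 6.11 and 5.59, a log2 ratio of -0.53, while another tied to the same number of symbols, 14, had 7.17 and 7.19, a log2 ratio of 0.019.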
